A study of Mus musculus with 8 samples.

Results

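The genes described here carry iron into the cell, move it to the mitochondrion, store it in ferritin, export it and sense it. They are Tfrc, Tfr2, Steap3, Slc11a2, Slc25a37, Fth1, Ftl1, Slc40a1, Aco1 and Ireb2, chosen by name for their known roles, and all 10 were found among the 56748 genes of the expression table. Expression was measured by bulk RNA sequencing of poly(A) RNA in 8 libraries of 32D cells, a mouse bone marrow line that needs interleukin-3 (IL-3) to grow. The study asked what loss of the glucose transporters GLUT1 (Slc2a1) and GLUT3 (Slc2a3) does to cells with the activating V617F mutation of the kinase Jak2. Levels are given as FPKM, the fragments on a gene per kilobase of its listed length and per unit of library size.

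There were 4 groups of 2 clones, and every library came from a single clone. Jak2WT GLUT1/3 WT and Jak2WT GLUT1/3 dKO cells carried a murine wild-type Jak2 transgene, while Jak2V617F GLUT1/3 WT and Jak2V617F GLUT1/3 dKO cells carried the murine mutant. In the dKO (double knockout) clones both transporter genes had been disrupted with CRISPR-Cas9. All groups were kept for 24 h in RPMI-1640 medium that held 10% fetal calf serum, 2 ng/ml IL-3, 1 mM glutamine and 5 mM glucose, without pyruvate. The 2 clones of a group, numbered 1 and 3 in the labels, are the replicates, so each SD and p-value rests on the spread between clones of 1 cell line, and an effect of the genotype cannot be told apart from what 2 clones happen to share.

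Most cells take up iron bound to transferrin, which the transferrin receptor Tfrc carries into endosomes; there Steap3 reduces the iron and the transporter Slc11a2 (DMT1) moves it into the cytosol. From there it enters mitochondria through Slc25a37 (mitoferrin 1), is stored in shells of ferritin heavy (Fth1) and light (Ftl1) chains, or leaves through ferroportin (Slc40a1). The iron regulatory proteins IRP1 (Aco1) and IRP2 (Ireb2) bind a hairpin called the iron-responsive element when iron is scarce; at the 5′ end of an mRNA this blocks translation, as in the ferritins, and in the 3′ UTR of Tfrc it protects the mRNA from decay. Red cell precursors, which make hemoglobin, are the body's main users of this route.

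These hairpins are shown because they separate the genes whose mRNA level can follow the iron regulatory proteins from those whose translation does. The search asked for the loop CAGTGN closed by 5 base pairs with an unpaired C before them and at least 4 of the 5 pairs below, in the UTRs of the protein-coding transcripts of GENCODE vM39 on GRCm39, the same build as the mm39 of the files. Each sequence below reads 5′ to 3′ along the mRNA in DNA letters, and the capitals mark the 6 bases of the loop. The 4 hairpins of Tfrc lie in its 3′ UTR, within the gene at chr16:32427738-32451612 on the forward strand, from chr16:32450037-32450066 for the first to chr16:32450528-32450557 for the last.
Tfrc hairpin 1: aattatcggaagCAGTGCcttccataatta
Tfrc hairpin 2: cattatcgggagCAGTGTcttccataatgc
Tfrc hairpin 3: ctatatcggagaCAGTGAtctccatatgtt
Tfrc hairpin 4: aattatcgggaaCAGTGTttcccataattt

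A single hairpin was found in the 5′ UTR of Fth1 (chr19:9960096-9960125, forward strand), of Ftl1 (chr7:45109202-45109231, reverse strand) and of Slc40a1 (chr1:45964624-45964653, reverse strand). The loop of Fth1 ends in C, as in the first hairpin of Tfrc, and those of Ftl1 and Slc40a1 end in T.
Fth1 hairpin: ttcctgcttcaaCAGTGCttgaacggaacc
Ftl1 hairpin: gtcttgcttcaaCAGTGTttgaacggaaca
Slc40a1 hairpin: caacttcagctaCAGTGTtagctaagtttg

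Hairpins of this form were rare, in the 5′ UTR of 7 of 20413 genes (0.0343%) and the 3′ UTR of 14 of 20830 (0.0672%), whereas the bare letters CAGTG stood in 43.3% and 77.9% of them. The search found none in the UTRs of Tfr2, Steap3, Slc11a2, Slc25a37, Aco1 or Ireb2, which says only that this pattern is not in the annotated transcripts. Promoter windows from RefSeq, from 250 bases before to 50 after a start, were searched on both strands for ACGTG, the core that hypoxia-inducible factors recognise, for the longer CACGTG that contains it, for the GATA factor site AGATAA and for the STAT site TTCNNNGAA. Of these, Tfrc held ACGTG. It is shown because the study centres on HIF-1, and the capitals mark the core, at chr16:32427700-32427729 on the forward strand of GRCm39.
Tfrc promoter: ctcggtaggtgtACGTGcggaaggaagtga

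ACGTG stood in 19.6% of the 32851 promoter windows (GRCm38.p6), CACGTG in 7.15%, AGATAA in 11.2% and TTCNNNGAA in 8.3%, and binding was not measured in these cells. Of the other iron genes with a window, Tfr2 held ACGTG in 2 of its 3 windows and Steap3 held AGATAA in 1.

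In every library Ftl1 and Fth1 had the highest levels of the 10 genes, followed by Tfrc. Over the 8 libraries Ftl1 ranged from 257 to 610 FPKM (median 373) and Fth1 from 253 to 371 (median 343). Their ranges overlap, and their order depends on the length used. The listed length of Fth1, 3469 bases, is 3.73 times that of its canonical transcript (929 bases), against 1.38 times for Ftl1, and per canonical length the medians came to 1282 for Fth1 and 515 for Ftl1. Tfrc followed at 91.6 to 203 FPKM (median 167). Ireb2 (17.2 to 22.1) stood above Slc25a37 (12.0 to 15.8) without overlap. Slc11a2 (3.36 to 5.55), Steap3 (2.12 to 4.72) and Tfr2 (0.299 to 6.41) overlapped one another on the FPKM scale.

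Slc40a1 and Aco1 were listed at 0 in all 8 libraries. With 16846011 to 48884329 reads on genes per library, a count of 0 allows up to 3 reads, or at most 0.0192 FPKM of Slc40a1 and 0.0385 FPKM of Aco1 in the least deep library. These limits cover counting error only, and both genes stayed out of every test. Of the 10 genes, 8 therefore passed the filter on low values, which asked for 2 or more libraries with an FPKM no lower than 1.

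**Figure D1:**
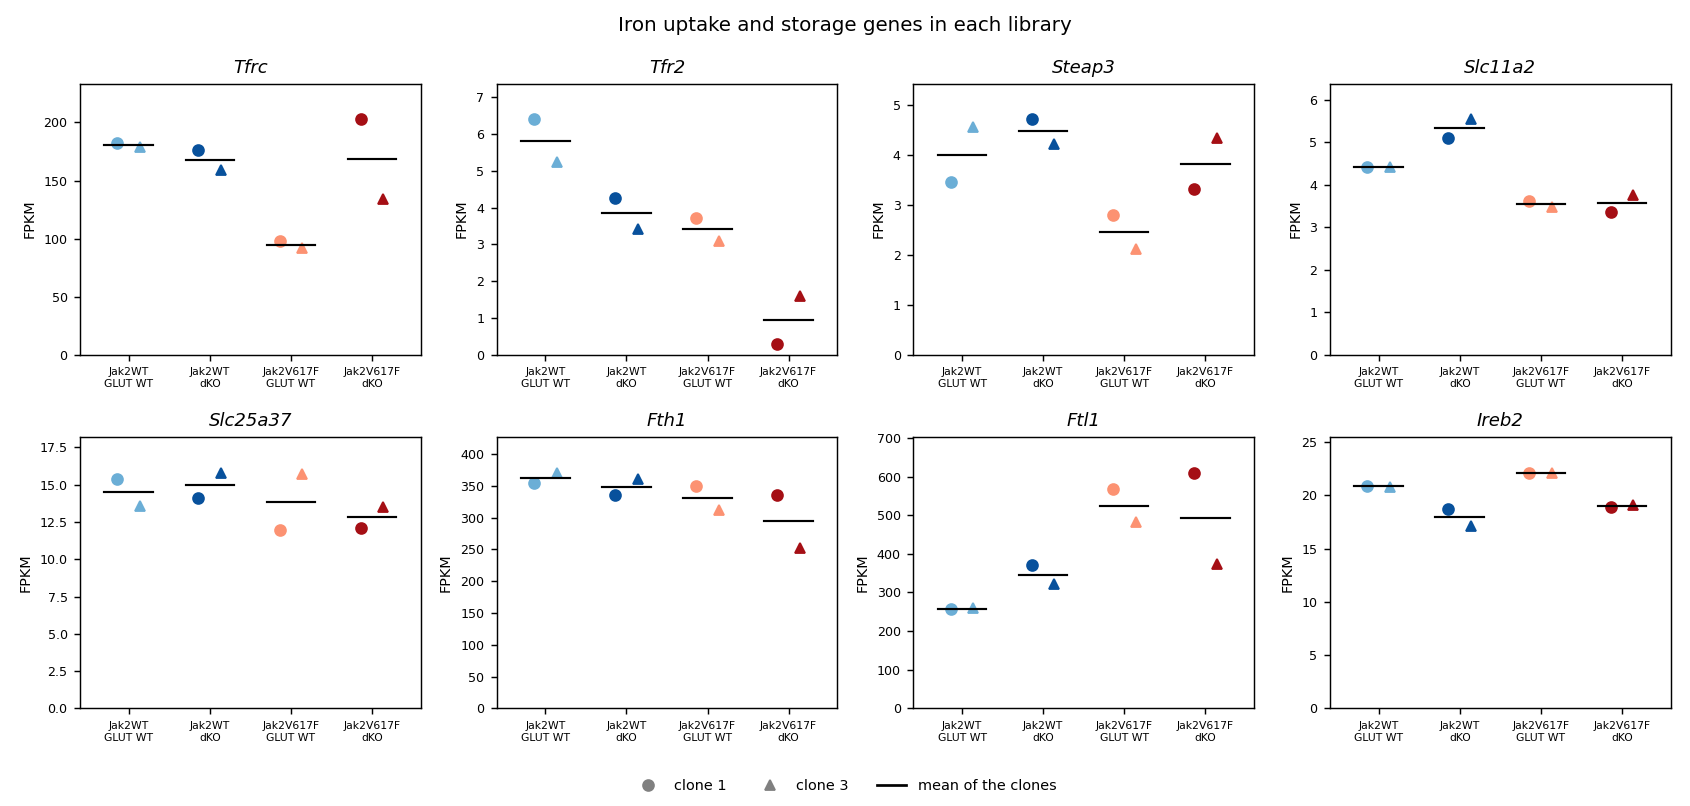
FPKM (vertical axis, from 0) of the 8 expressed iron genes in the 4 groups, with a circle for clone 1, a triangle for clone 3 and a line at their mean. Tfrc was lowest in both Jak2V617F GLUT1/3 WT clones (97.7 and 91.6), Tfr2 lowest in both Jak2V617F GLUT1/3 dKO clones (0.299 and 1.60), and Ftl1 lowest in both Jak2WT GLUT1/3 WT clones (257 and 260).

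The groups matched their labels at the targeted genes. Slc2a1 lay at 44.7 to 64.0 FPKM in the GLUT1/3 WT libraries and 9.17 to 17.3 in the dKO libraries, and Slc2a3 at 91.9 to 198 and 16.0 to 49.5, the highest dKO value being that of Jak2WT clone 3, where the fall of Slc2a3 missed the threshold (adjusted p = 0.0612). The 2 backgrounds also differed in Jak2 itself, at 218 to 258 FPKM with Jak2WT and 139 to 165 with Jak2V617F. The labels call 32D cells myeloblast-like, but of 10 granulocyte and myeloblast markers only Cebpe, Myb, Spi1 and Prtn3 reached an FPKM of 1 in any library, and Mpo, Elane, Ctsg, Cebpa, Csf3r and Ms4a3 did not. Erythroid markers, with 9 of 12 above that level, had a summed FPKM of 98.9 to 117 in Jak2WT GLUT1/3 WT, 251 to 295 in Jak2WT GLUT1/3 dKO, 568 to 928 in Jak2V617F GLUT1/3 WT and 2611 to 4708 in Jak2V617F GLUT1/3 dKO. Nearly all of that sum in the last group was globin mRNA, while Alas2 and Slc4a1 stayed below an FPKM of 1 in every library. Because RNA was taken from whole cultures, fewer cells of a kind and less RNA per cell cannot be told apart.

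Differences were tested with limma on log2(FPKM + 1), with Benjamini-Hochberg adjustment over the 11818 genes that passed the filter, and a gene was called at an adjusted p under 0.05. Loss of GLUT1/3 in Jak2WT cells left 0 of the 8 iron genes called higher and 0 called lower, beside 7.62% and 6.06% of all genes tested. At an unadjusted p under 0.05, 2 of the 8 passed, and voom on recovered reads called 0. In Jak2V617F cells, loss of GLUT1/3 was accompanied by a rise of Tfrc and a fall of Tfr2, so 1 of the 8 was called higher and 1 lower, beside 13.7% and 16.2% of all genes. Voom called 2 higher and 1 lower, Steap3 being the addition. The median log2 difference of the 8 genes was -0.0078 in Jak2WT and -0.11 in Jak2V617F, and that of all genes 0.0082 and -0.019.

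Between the backgrounds, GLUT1/3 WT clones with Jak2V617F had less Tfrc and Steap3 and more Ftl1 than those with Jak2WT, which is 1 called higher and 2 called lower of 8, beside 15.3% and 14.9% of all genes. Among the dKO clones, Jak2V617F was accompanied by less Tfr2 and Slc11a2, with 0 called higher and 2 lower, beside 7.12% and 9.96%. Median log2 differences of the 8 genes were -0.19 and -0.20 in these comparisons, and those of all genes 0.0076 and -0.023. The test of whether the dKO effect differed between the backgrounds called 0 of the 8 higher and 0 lower, beside 4.72% and 5.91% of all genes. By that test 1 of the 8, Tfrc, had an unadjusted p under 0.05, and voom called 1, again Tfrc. These shares of called genes are small numbers of 8, and none is read as particular to iron genes. Counts of the 8 at an unadjusted p or by voom, here and in the paragraph before, have no share of all genes beside them. They are not read as a result about iron genes. Without the filter the dKO calls in Jak2V617F were lost (Tfrc adjusted p = 0.0606, Tfr2 0.0760), as were those of Steap3 (0.136) and Ftl1 (0.0592) among GLUT1/3 WT clones and of Tfr2 (0.0802) among dKO clones. A fit of only the 2 groups compared also lost the calls of Tfrc (0.0704) and Tfr2 (0.0748) for the dKO, of Steap3 (0.0647) among GLUT1/3 WT clones, and of Tfr2 (0.0715) and Slc11a2 (0.0621) among dKO clones. The comparisons share libraries, for example the Jak2V617F GLUT1/3 WT clones, so their calls are not independent of each other.

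**Figure D2:**
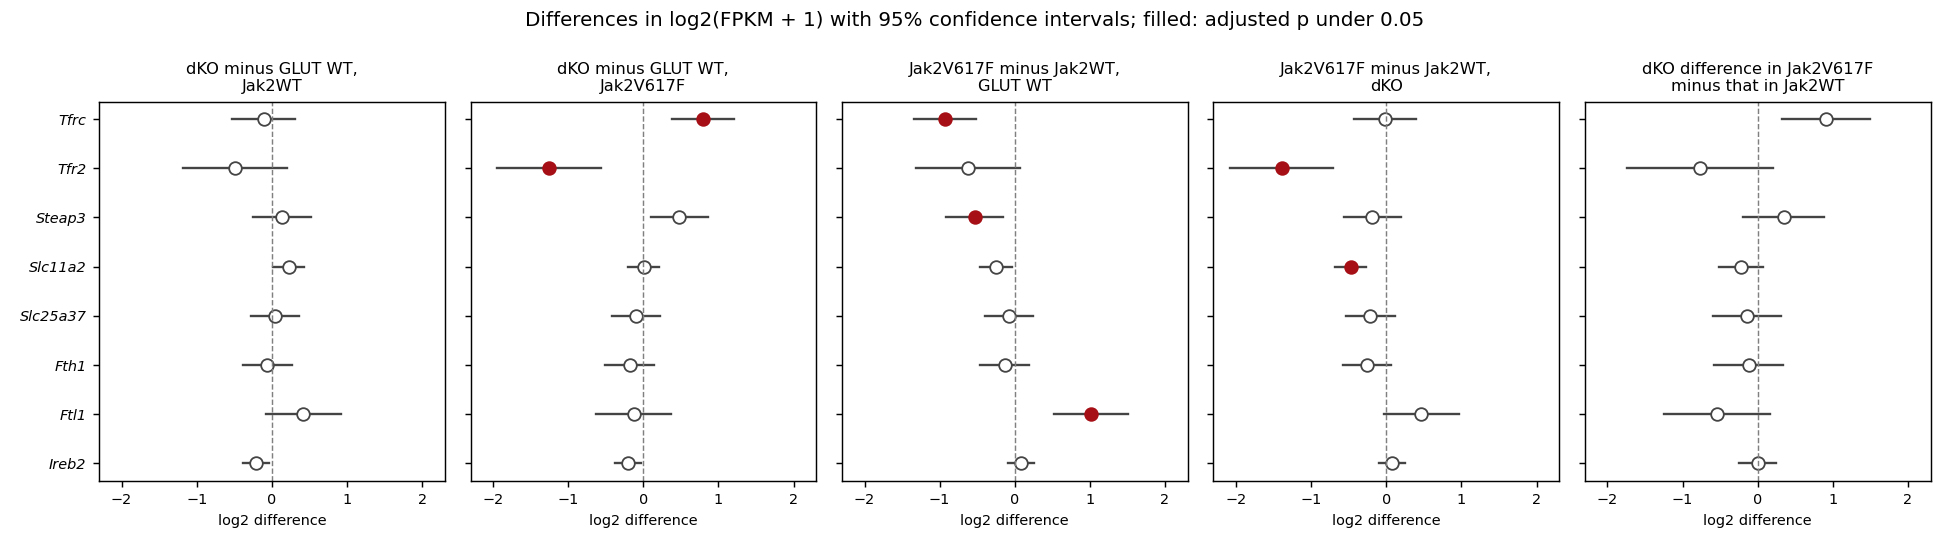
Differences in log2(FPKM + 1) (horizontal axis) for the 8 expressed iron genes in the 4 comparisons and for the difference between the dKO effects, with limma's 95% confidence interval as a bar and filled points at an adjusted p under 0.05. Tfrc was the only gene called in opposite directions, at 0.79 for the dKO in Jak2V617F and -0.93 for Jak2V617F among the GLUT1/3 WT clones.

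Tfrc, the receptor for iron-loaded transferrin, held 182 and 179 FPKM in Jak2WT GLUT1/3 WT, where it was even between clones, and 176 and 159 in Jak2WT dKO. It stood at 97.7 and 91.6 FPKM in the Jak2V617F GLUT1/3 WT clones. Jak2V617F dKO clones had 203 and 134 FPKM, the most uneven pair of the 4. The Jak2V617F GLUT1/3 WT clones were thus below all 6 other libraries, and the Jak2V617F dKO clones spanned the range of both Jak2WT groups. Their deficit against Jak2WT was -0.93 on the log2 scale (SE 0.18, 95% interval -1.34 to -0.51, adjusted p = 0.00842), a level of 0.527 times. It passed the threshold under all 18 alternatives, the adjusted p reaching 0.0483 at most.

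With the transporters lost, Tfrc in Jak2V617F rose by 0.79 on the log2 scale (SE 0.18, 95% interval 0.38 to 1.21, adjusted p = 0.0152), or 1.73-fold. Without Jak2V617F dKO clone 1 this difference was 0.49 (adjusted p = 0.0214), and without clone 3 it was 1.09 (adjusted p = 0.00214). It missed the threshold when either Jak2V617F GLUT1/3 WT clone was left out, at an adjusted p of 0.0539 without clone 1 and 0.0652 without clone 3. In Jak2WT the same step gave -0.11 (95% interval -0.52 to 0.30, adjusted p = 0.714). The difference between the 2 dKO effects, 0.90 on the log2 scale (SE 0.25, 95% interval 0.32 to 1.49), had an adjusted p of 0.0615. It passed under 5 of 17 alternatives, among them voom (adjusted p = 0.0209), a replicate block by clone number (adjusted p = 0.0497), libraries scaled to the same FPKM total (0.0291) and the fits without Jak2V617F dKO clone 1 (0.0461) or clone 3 (0.0126). Among the dKO clones the log2 difference between the backgrounds was -0.02, with an interval of -0.44 to 0.39.

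Tfr2, a relative of Tfrc that binds transferrin more weakly and is expressed in liver and red cell precursors, lay on chromosome 5 (137568102 to 137585743, forward strand). Jak2WT GLUT1/3 WT clones had 6.41 and 5.22 FPKM and Jak2WT dKO clones 4.26 and 3.43. In Jak2V617F the levels were 3.72 and 3.10 FPKM with the transporters, and 0.299 and 1.60 without them. The Jak2V617F dKO clones were below all other libraries, and their clones differed from each other more than those of any other group in relative terms, resting on 45 and 175 reads. On the log2 scale, Tfr2 fell by 1.26 with the dKO in Jak2V617F (SE 0.29, 95% interval -1.95 to -0.57, adjusted p = 0.0181).

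Against the Jak2WT dKO clones, Tfr2 of the Jak2V617F dKO clones was lower by -1.39 on the log2 scale (SE 0.29, adjusted p = 0.0196). A pseudocount of 1 compresses such low levels: voom on recovered reads gave -2.41 and -2.57 for these comparisons. Clone 1 contributed most, since without it the differences were -0.76 (adjusted p = 0.0241) and -0.89 (adjusted p = 0.0269). The first call was lost without Jak2V617F GLUT1/3 WT clone 1 (adjusted p = 0.0879) or clone 3 (0.0527), and the second without Jak2WT dKO clone 1 (0.115) or clone 3 (0.0688). In Jak2WT the dKO difference was -0.49 (95% interval -1.18 to 0.20, adjusted p = 0.299), and the test of the 2 dKO effects against each other gave -0.77 (adjusted p = 0.258), with -0.27 without Jak2V617F dKO clone 1 and -1.27 (adjusted p = 0.0245) without clone 3. Tfrc and Tfr2 therefore moved in opposite directions with the dKO in Jak2V617F.

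Steap3, the ferrireductase of the endosome, lies on chromosome 1 (120118487 to 120200435, reverse strand). It had 3.46 and 4.55 FPKM in Jak2WT GLUT1/3 WT, 4.72 and 4.22 in Jak2WT dKO, 2.79 and 2.12 in Jak2V617F GLUT1/3 WT, and 3.31 and 4.34 in Jak2V617F dKO. As with Tfrc, the Jak2V617F GLUT1/3 WT clones were the lowest 2 of the 8 libraries. Their difference from Jak2WT, -0.53 on the log2 scale (SE 0.16, adjusted p = 0.0444), was close to the threshold and was lost under 10 of 18 alternatives, with -0.37 (adjusted p = 0.232) without Jak2WT GLUT1/3 WT clone 3, -0.39 (0.184) without Jak2V617F GLUT1/3 WT clone 3, and 0.0601 as the adjusted p with the replicate block. Leaving out Jak2WT GLUT1/3 WT clone 1, Jak2V617F GLUT1/3 WT clone 1 or either Jak2WT dKO clone gave adjusted p-values from 0.0559 to 0.0675. The dKO in Jak2V617F gave 0.48 (95% interval 0.10 to 0.86) with an adjusted p of 0.0621, which passed by voom (0.0237), with libraries scaled to the same FPKM total (0.0310) and without Jak2V617F dKO clone 1 (0.0490). In Jak2WT it gave 0.13 (adjusted p = 0.615).

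Slc11a2, the endosomal iron transporter DMT1, lies on chromosome 15 (100285779 to 100322953, reverse strand) and varied little between clones. It had 4.41 and 4.41 FPKM in Jak2WT GLUT1/3 WT and 5.11 and 5.55 in Jak2WT dKO. In Jak2V617F it had 3.62 and 3.47 FPKM with the transporters and 3.36 and 3.77 without them. All 4 Jak2V617F libraries were below all 4 Jak2WT libraries. Among the dKO clones the difference was -0.47 on the log2 scale (SE 0.089, adjusted p = 0.0131), or 0.721 times, and among the GLUT1/3 WT clones -0.25 (SE 0.089, adjusted p = 0.0690, or 0.0222 with libraries scaled to the same FPKM total). The first was lost without Jak2WT dKO clone 1 (adjusted p = 0.0584), Jak2WT dKO clone 3 (0.0840) or Jak2V617F dKO clone 1 (0.0525). Within Jak2WT the dKO difference was 0.23 (95% interval 0.02 to 0.43), which passed an unadjusted threshold but not the adjusted one (adjusted p = 0.130 by limma).

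Slc25a37 imports iron into mitochondria and is most active in red cell precursors. It held 12.0 to 15.8 FPKM across all 8 libraries, with both Jak2V617F dKO clones (12.1 and 13.5) just below both Jak2WT groups (13.6 to 15.8) and the other groups overlapping. None of its 4 differences passed, the size reaching 0.21 at most (Jak2V617F against Jak2WT among dKO clones, fell by 0.21 on the log2 scale, adjusted p = 0.337). Its mean ratio to Slc25a28, the mitoferrin of other tissues, was close to 1 in each group, from 0.872 in Jak2V617F dKO to 1.07 in Jak2WT dKO.

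Fth1, the ferritin chain that oxidises iron, lies on chromosome 19 (9957962 to 9962462, forward strand). Jak2WT GLUT1/3 WT clones had 355 and 371 FPKM, Jak2WT dKO clones 336 and 360, Jak2V617F GLUT1/3 WT clones 350 and 312, and Jak2V617F dKO clones 336 and 253. All 4 Jak2V617F values were below those of Jak2WT GLUT1/3 WT, but no comparison was called. Its 4 intervals lay between -0.58 and 0.26 on the log2 scale, so a 2-fold difference was outside each of them.

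Ftl1, the chain that helps iron to mineralise in the ferritin core, lies on chromosome 7 (45107368 to 45109308, reverse strand). Levels were 257 and 260 FPKM in Jak2WT GLUT1/3 WT and 371 and 322 in Jak2WT dKO. With Jak2V617F they were 567 and 483 FPKM in the GLUT1/3 WT clones and 610 and 375 in the dKO clones. The 4 Jak2V617F libraries were above all 4 Jak2WT libraries, though clone 3 of the dKO by only 375 against 371. Among the GLUT1/3 WT clones the difference was 1.01 on the log2 scale (SE 0.21, 95% interval 0.52 to 1.51, adjusted p = 0.0118), or 2.02-fold. Leaving out Jak2WT GLUT1/3 WT clone 1 or clone 3 or Jak2V617F GLUT1/3 WT clone 1 took its adjusted p to 0.0594, 0.0591 and 0.0646. Among the dKO clones it was 0.47 (95% interval -0.03 to 0.97, adjusted p = 0.179), a value set by single clones, since it was 0.12 without Jak2V617F dKO clone 1 and 0.82 (adjusted p = 0.0130) without clone 3. The difference between the 2 dKO effects was -0.55 (adjusted p = 0.265), and -0.90 (adjusted p = 0.0363) without Jak2V617F dKO clone 1 and -0.19 without clone 3. The dKO itself gave 0.42 in Jak2WT (adjusted p = 0.228) and -0.13 in Jak2V617F (adjusted p = 0.681).

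Ferritin has many near-identical copies in the mouse genome, so reads can be shared. Of 15 other ferritin-like rows, 10 were at 0 in all libraries, and 1, Ftl1-ps1 on chromosome 13, was above an FPKM of 1. It ran from 5.09 to 14.3 FPKM, and Ftl1 was on average 39.9 to 48.2 times higher in each group. The values of Ftl1 and Ftl1-ps1 may thus include reads of each other, and the split is uncertain. How reads that match several copies were counted is not given in the sources used here. Gapdh, an abundant gene that also has many copies, was listed at 5.28 to 18.2 FPKM.

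Ratios within a library do not depend on how libraries were scaled. Tfrc to Ftl1 was 0.698 ± 0.0156 in Jak2WT GLUT1/3 WT (SD, n = 2), 0.484 ± 0.0126 in Jak2WT dKO, 0.181 ± 0.0124 in Jak2V617F GLUT1/3 WT and 0.345 ± 0.0173 in Jak2V617F dKO, with no overlap between any groups. Tfrc to Fth1 was 0.498, 0.482, 0.286 and 0.567 in the same order, with the Jak2V617F GLUT1/3 WT clones (0.279 and 0.294) below all others (0.441 to 0.605). Ftl1 to Fth1 was 0.702 and 0.724 in Jak2WT GLUT1/3 WT, 0.893 and 1.10 in Jak2WT dKO and 1.48 to 1.82 in the 4 Jak2V617F libraries, on the listed lengths. The clones of a pair lay closer in these ratios than in FPKM for Jak2V617F dKO, where Tfrc and Ftl1 were both higher in clone 1. The ratios were not tested.

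**Figure D3:**
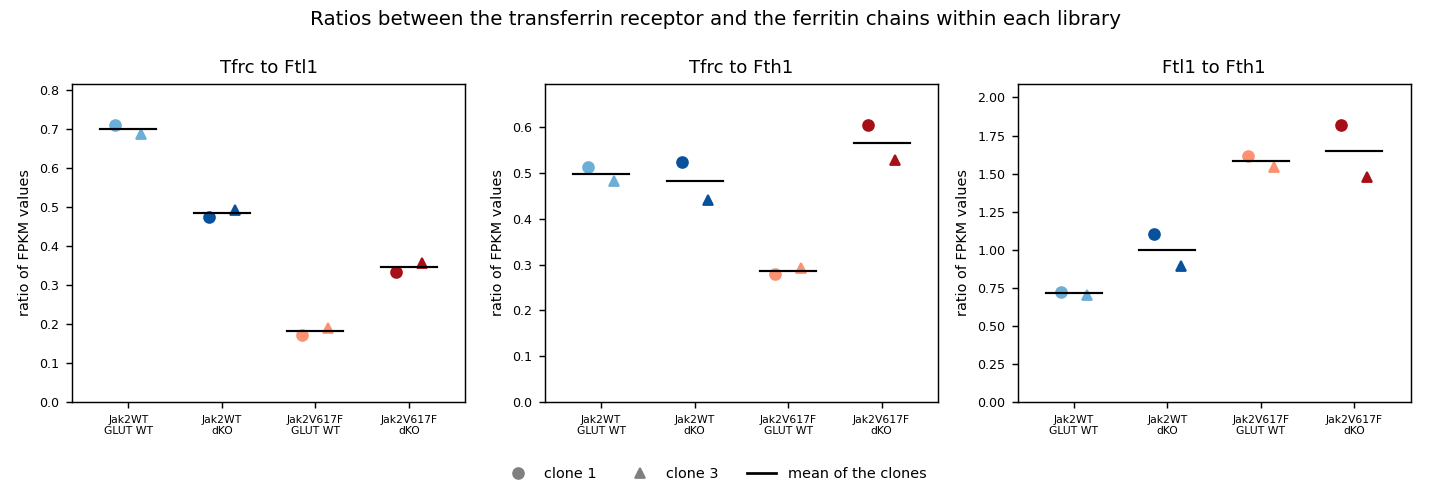
Ratios of FPKM values (vertical axis, from 0) within each library in the 4 groups, with a circle for clone 1, a triangle for clone 3 and a line at their mean. Tfrc to Ftl1 took separate values in all 4 groups, highest in Jak2WT GLUT1/3 WT (0.687 and 0.710) and lowest in Jak2V617F GLUT1/3 WT (0.172 and 0.190).

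Of the 2 iron regulatory proteins, the one encoded by Ireb2 was expressed and Aco1 was listed at 0. Ireb2 (chromosome 9, 54771073 to 54819814, forward strand) had 20.9 and 20.8 FPKM in Jak2WT GLUT1/3 WT, 18.8 and 17.2 in Jak2WT dKO, 22.1 and 22.1 in Jak2V617F GLUT1/3 WT, and 19.0 and 19.1 in Jak2V617F dKO. All 4 dKO libraries were below all 4 with transporters. The dKO differences were nearly equal, -0.21 in Jak2WT and -0.21 in Jak2V617F (SE 0.075 each), but their adjusted p-values of 0.107 and 0.0757 missed the threshold, which the first passed with libraries scaled to the same FPKM total (0.0301). IRP2 is controlled mainly by degradation of the protein, which these data do not measure.

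Other genes that bring iron to the cell or carry it inside the cell included transferrin itself, which fell with the dKO in Jak2V617F. Of 18 listed, 11 passed the filter, and for the dKO 1 was called higher and 0 lower in Jak2WT, and 0 higher and 5 lower in Jak2V617F (medians -0.05 and -0.28). Of all genes, 7.62% were higher and 6.06% lower in the first and 13.7% and 16.2% in the second, and over all iron lists, members included, 7 of 58 genes tested were higher and 15 lower in Jak2V617F (12.1% and 25.9%). Steap1, Steap2 and Steap4, the relatives of Steap3, were listed at 0. Trf, transferrin itself, fell in Jak2V617F from 17.5 and 15.4 FPKM to 3.39 and 8.63 (-1.42 on the log2 scale, SE 0.31, adjusted p = 0.0137). Pcbp2, a cytosolic iron chaperone, fell from 100.1 and 88.5 FPKM to 65.2 and 67.7 (-0.50, adjusted p = 0.00547), and Vps35, a part of the retromer complex that recycles receptors, by 0.52 on the log2 scale (adjusted p = 0.0101, or 0.0502 in the fit of only the groups compared). In Jak2WT the importer Slc39a14 (ZIP14) was higher, at 7.12 and 6.75 FPKM against 4.83 and 4.93 (0.43, adjusted p = 0.0364). The difference of Trf was -0.85 without Jak2V617F dKO clone 1. Its call was lost without Jak2V617F GLUT1/3 WT clone 1, without the filter and in the fit of only the groups compared, and that of Slc39a14 without the filter or any 1 of the 4 Jak2WT clones, at an adjusted p of up to 0.0689 and 0.177 over all alternatives.

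Between the backgrounds, 2 of these 11 were called higher and 2 lower among the GLUT1/3 WT clones, and 0 higher and 3 lower among the dKO clones, beside 15.3% higher and 14.9% lower of all genes in the first and 7.12% and 9.96% in the second. Ltf, lactotransferrin, had 3.94 to 12.4 FPKM in the Jak2WT libraries and 0.0417 to 0.632 in the Jak2V617F libraries (-2.91 and -2.96 on the log2 scale, adjusted p = 0.00368 and 0.00569). Slc39a8 (ZIP8) was likewise lower with Jak2V617F, by -0.78 and -1.04. Exoc6, an exocyst subunit needed for transferrin recycling in red cell precursors, was higher among the GLUT1/3 WT clones, at 35.8 and 31.1 FPKM against 22.6 and 21.9 (0.56, adjusted p = 0.00416).

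Among genes of ferritin turnover and of IRP2 control, Ncoa4 and Fbxl5 fell with the dKO in Jak2V617F. Of 8 listed, 6 were tested, with 0 called higher and 1 lower for the dKO in Jak2WT and 1 higher and 3 lower in Jak2V617F (medians -0.08 and -0.25), beside 7.62% higher and 6.06% lower of all genes in the first and 13.7% and 16.2% in the second. Ncoa4, the receptor that delivers ferritin to lysosomes for iron release, stood at 39.7 and 36.7 FPKM in Jak2V617F GLUT1/3 WT and 13.5 and 19.9 in Jak2V617F dKO (-1.17, SE 0.16, adjusted p = 0.00235), against 31.7 and 29.9 and 28.6 and 27.6 in the Jak2WT groups. Fbxl5, the iron-sensing subunit of the ligase that degrades IRP2, fell from 5.12 and 5.54 FPKM to 2.87 and 2.41 (-0.80, SE 0.11, adjusted p = 0.00220). Tax1bp1, an autophagy receptor, was lower with Jak2V617F in both transporter states, by -0.41 and -0.76, and Fbxl5 was higher with it among the GLUT1/3 WT clones, by 0.47 (adjusted p = 0.0156), a call lost without the filter, with libraries scaled to the same FPKM total, and without either Jak2WT clone or Jak2V617F clone 3 of them (adjusted p up to 0.0936). The call of Tax1bp1 among the GLUT1/3 WT clones was lost when any 1 of the 4 was left out (adjusted p up to 0.113). Between the backgrounds the list had 1 called higher and 1 lower among GLUT1/3 WT clones and 1 higher and 2 lower among dKO clones, beside 15.3% and 14.9% of all genes in the first and 7.12% and 9.96% in the second.

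Of the genes of heme transport and breakdown, Hmox1 fell and Blvrb rose with the dKO in both backgrounds. Of 10 listed, 7 were tested, and the dKO gave 1 higher and 1 lower in Jak2WT and 2 higher and 2 lower in Jak2V617F (medians 0.07 and -0.02), beside 7.62% higher and 6.06% lower and 13.7% higher and 16.2% lower of all genes. Hmox1, which cleaves heme and frees its iron, fell from 43.2 and 42.9 FPKM to 24.4 and 20.4 in Jak2WT (-0.92, SE 0.12, adjusted p = 0.00691) and from 69.2 and 56.6 to 17.5 and 17.8 in Jak2V617F (-1.77, SE 0.12, adjusted p = 0.000379). The Jak2WT call was lost without Jak2WT GLUT1/3 WT clone 1 or clone 3, at an adjusted p of up to 0.0584, and that of Blvrb without the filter or any 1 of the 4 Jak2WT clones, at up to 0.162. Blvrb, which reduces a product of heme breakdown, rose in Jak2WT from 6.60 and 7.19 FPKM to 10.2 and 10.9 (0.55) and in Jak2V617F from 8.68 and 7.05 to 19.3 and 16.2 (1.08, adjusted p = 0.00126). With Jak2V617F, 2 of the 7 were called higher and 2 lower among GLUT1/3 WT clones and 2 higher and 1 lower among dKO clones, beside 15.3% and 14.9% of all genes in the first and 7.12% and 9.96% in the second. The largest of these among GLUT1/3 WT clones was Slc48a1, a heme transporter of the lysosome, at 0.67 (adjusted p = 0.0115), a call lost without either Jak2WT clone of them (adjusted p up to 0.0660).

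**Figure D4:**
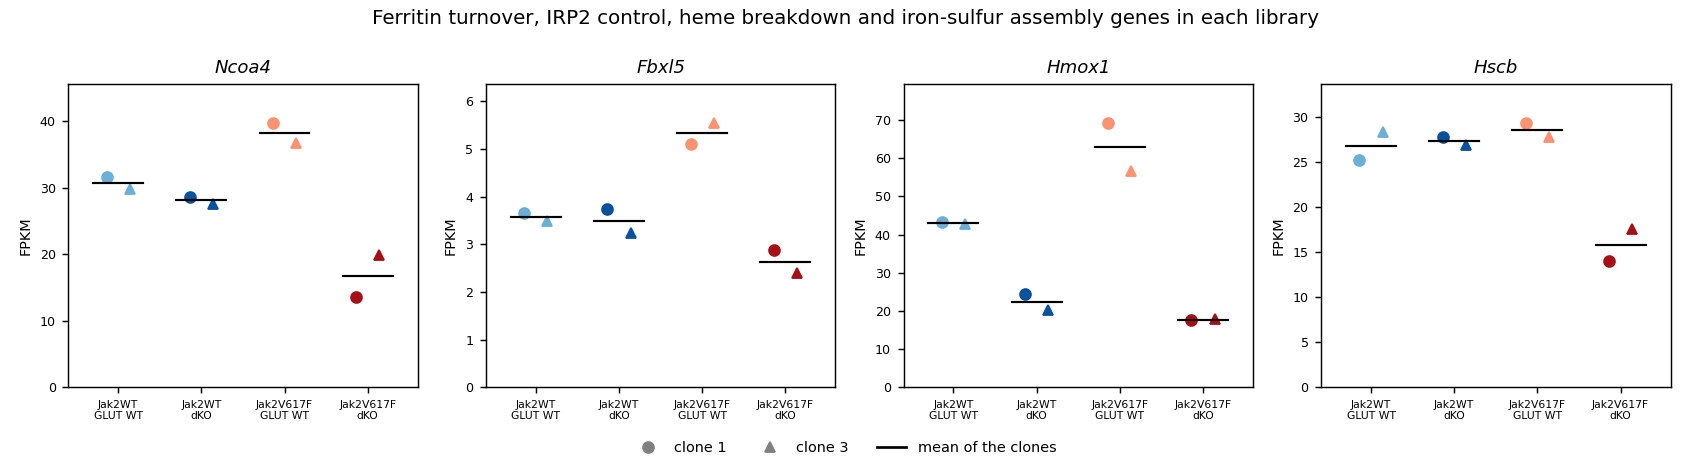
FPKM (vertical axis, from 0) of Ncoa4, Fbxl5, Hmox1 and Hscb in the 4 groups, with a circle for clone 1, a triangle for clone 3 and a line at their mean. For each of the 4 genes both Jak2V617F dKO clones lay below all other libraries, for Ncoa4 at 13.5 and 19.9.

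Of the genes of iron-sulfur cluster assembly, Hscb fell and Nubp1 and Nubp2 rose with the dKO in Jak2V617F. Of 25 listed, 24 were tested. The dKO gave 2 higher and 1 lower in Jak2WT and 3 higher and 4 lower in Jak2V617F (medians 0.05 and 0.20), beside 7.62% higher and 6.06% lower of all genes in the first and 13.7% and 16.2% in the second. Jak2V617F gave 3 higher and 2 lower among GLUT1/3 WT clones and 2 higher and 2 lower among dKO clones, beside 15.3% and 14.9% of all genes in the first and 7.12% and 9.96% in the second. Nubp1 and Nubp2, the cytosolic scaffold on which clusters form, were higher with the dKO in Jak2V617F by 0.64 (adjusted p = 0.00187) and 0.61 (adjusted p = 0.0103). Nubp1 was also called higher with the dKO in Jak2WT, by 0.36 (adjusted p = 0.0300), a call lost without the filter or any 1 of the 4 Jak2WT clones (adjusted p up to 0.186). Hscb, the co-chaperone that hands on new mitochondrial clusters, fell from 29.3 and 27.8 FPKM to 14.0 and 17.6 (-0.82, SE 0.11, adjusted p = 0.00264). Glrx5, a mitochondrial cluster carrier needed in red cell precursors, rose with Jak2V617F by 0.58 and 0.79 (adjusted p = 0.0350 and 0.0186). Isca1, which acts in the late steps of mitochondrial cluster assembly, was higher with Jak2V617F among the GLUT1/3 WT clones by 0.58 (adjusted p = 0.00808, or 0.0581 without Jak2WT clone 1 of them). Both calls of Glrx5 were lost without the filter, without either Jak2WT clone of the groups compared and without Jak2V617F clone 1 of them, which took the first to 0.38. The first was also lost with libraries scaled to the same FPKM total and without either Jak2WT dKO clone, at an adjusted p of up to 0.162, against 0.0916 for the second.

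Genes of iron export and of the hormone hepcidin were near or at 0. None of the 10 listed passed the filter, and the highest value was 0.785 FPKM of Neo1, a membrane protein that acts in hepcidin control. Of 5 other mRNAs known to carry the hairpin, 2 were tested. Alas2, the heme synthesis enzyme of red cells, whose mRNA has the hairpin in its 5′ UTR, did not exceed 0.227 FPKM, although Hba-a1, an alpha globin gene, reached 2007 FPKM.

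Markers of other cell types moved between the same groups. For the dKO in Jak2WT, 2 of 9 erythroid, 3 of 5 megakaryocyte and 1 of 2 macrophage markers (Cd68, 0.82 on the log2 scale) were called higher and none of the lists had one called lower, beside 7.62% and 6.06% of all genes. For the dKO in Jak2V617F, where Tfrc rose and Tfr2 fell, 6 of 9 erythroid markers tested were called higher and 1 lower, 3 of 5 megakaryocyte markers higher, 3 of 4 granulocyte markers lower and 1 of 2 macrophage markers lower (Adgre1, -1.54 on the log2 scale), beside 13.7% higher and 16.2% lower of all genes. For Jak2V617F among GLUT1/3 WT clones, where Tfrc and Steap3 were lower and Ftl1 higher, 7 of 9 erythroid and 4 of 5 megakaryocyte markers were higher and 1 of 4 granulocyte (Cebpe, -1.28), 1 of 2 mast cell and 1 of 2 macrophage markers (Cd68, -0.66) lower, beside 15.3% and 14.9% of all genes. For Jak2V617F among dKO clones, where Tfr2 and Slc11a2 were lower, 8 of 9 erythroid and 5 of 5 megakaryocyte markers were higher, and 2 of 4 granulocyte, 1 of 2 mast cell and 2 of 2 macrophage markers lower, beside 7.12% and 9.96% of all genes. The summed mast cell and basophil markers ran from 122 to 222 FPKM and those of macrophages from 22.1 to 72.9, while lymphoid markers summed to at most 0.805. Cpa3, a mast cell protease, had 50.8 to 100.5 FPKM in the Jak2WT libraries and at most 1.67 with Jak2V617F. The part of these markers in the differences of the iron genes was not tested.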

How the data were processed

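Poly(A) RNA of 8 libraries, 2 clones in each of 4 groups, had been sequenced and processed by the authors with HISAT2 2.2.1 on mm39 after trimming by fastp 1.0.1, with counting by featureCounts 2.0.6, per the labels; the annotation release and the strand setting are not given in the sources used here. The deposited table holds FPKM per gene for each library. Multiplying FPKM by the listed gene length and by a factor for each library gave whole reads for 100% of values (within 0.01), with 16846011 to 48884329 reads on genes per library.

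Differences were tested with limma 3.58.1 on log2(FPKM + 1), a scale that understates changes of low genes. Genes that reached an FPKM of 1 in 2 or more libraries entered a single fit of the 4 groups with a variance trend, and p-values were adjusted over all 11818 genes. The test was checked on simulated data for the dKO in Jak2V617F, where 178 of 200 genes changed 2-fold were recovered among 11818 at a simulated CV of 0.1 between clones; Tfrc, Tfr2, Steap3, Fth1 and Ftl1 spread more than that between the Jak2V617F dKO clones. The members and lists were chosen with earlier results of these data known. The rule for names was the members and, per iron list and comparison, at most 4 called genes with the largest change, of which the text gives some. Ferritin copies and markers of other cell types were named after their values were seen. Alternatives covered the pseudocount, filter, trend, scaling, voom on recovered reads, the clone number as a block, fits of only the groups compared, and leaving out each library. The 2 clones of each group were not the same library deposited again, as their reads differed beyond sampling noise. Both were used as replicates, but this does not show that they arose from separate edited cells. The paper lists the same size of GLUT1 deletion for all dKO clones within each background. Counting intervals cover counting error only. Some items are not reported here.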

Additional observations from a re-analysis of the deposited data

Results flagged for a closer look

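The test of whether the dKO effect differed between the backgrounds called 5 genes of the iron lists, all with a lower dKO effect in Jak2V617F than in Jak2WT, and none of the 8 expressed members. These are 0 higher and 5 lower (8.62%) of 58 iron genes tested, beside 4.72% higher and 5.91% lower of all genes, so the count is not read as particular to iron genes. Ncoa4, the ferritin cargo receptor, gave -1.04 on the log2 scale (SE 0.22, adjusted p = 0.0320 by limma), from a dKO difference of -0.13 in Jak2WT and -1.17 in Jak2V617F. Fbxl5, the iron-sensing ligase subunit, gave -0.77 (SE 0.15, adjusted p = 0.0257), from -0.03 and -0.80. Hscb, of iron-sulfur cluster transfer, gave -0.85 (SE 0.16, adjusted p = 0.0237), with 25.3 and 28.3 FPKM in Jak2WT GLUT1/3 WT, 27.7 and 26.9 in Jak2WT dKO, 29.3 and 27.8 in Jak2V617F GLUT1/3 WT and 14.0 and 17.6 in Jak2V617F dKO.

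Hmox1, heme oxygenase 1, gave -0.85 (SE 0.17, adjusted p = 0.0270), and it was lower with the dKO in each background. Hspa9, the mitochondrial chaperone that works with Hscb, gave -0.56 (SE 0.13, adjusted p = 0.0401), with 196 and 177 FPKM in Jak2WT dKO against 168 and 178 in Jak2WT GLUT1/3 WT, and 143 and 159 in Jak2V617F dKO against 214 and 201 in Jak2V617F GLUT1/3 WT. The direction held under all 17 alternatives for the 5 genes, but the adjusted p missed 0.05 under 7 for Ncoa4, 6 each for Fbxl5, Hscb and Hmox1, and 11 for Hspa9. All 5 calls were lost without the filter on low values, without either Jak2WT GLUT1/3 WT clone, without Jak2WT dKO clone 1 and without Jak2V617F GLUT1/3 WT clone 1. That of Hspa9 was also lost without the variance trend, with libraries scaled to the same FPKM total and with a replicate block, and over all alternatives the adjusted p reached 0.145 at most.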

How the results depend on the processing

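Of 712 alternative values of 40 results on the members, 641 kept their direction and their side of the threshold, 30 no longer passed it, 17 newly passed it and 24 changed sign, the last only for differences not called. Without the filter, genes called numbered 714 for the dKO in Jak2WT (1617 with it) and 346 for the difference between dKO effects (1256 with it), and members called 0 for the dKO in Jak2V617F, 1 for Jak2V617F among GLUT1/3 WT clones and 1 among dKO clones. Scaling libraries to the same FPKM total moved the median of all genes from 0.0076 to -0.12 for Jak2V617F among GLUT1/3 WT clones and from -0.039 to 0.12 for the difference between dKO effects. It called Ireb2 for the dKO in Jak2WT and Tfrc for the difference between dKO effects, with no share of all genes given beside them. It turned Slc25a37 for the dKO in Jak2WT to -0.049, Ireb2 for Jak2V617F among GLUT1/3 WT clones to -0.068, Tfrc among dKO clones to 0.018, and Slc25a37 and Fth1 for the difference between dKO effects to 0.042 and 0.070. Voom called 2449 genes for the dKO in Jak2WT and 1 member for the difference between dKO effects, and gave 0.013 for Tfrc among dKO clones. Fitting only the groups compared called 1 member for the dKO in Jak2WT, 0 of the members and 1617 genes (3533 with all groups) for the dKO in Jak2V617F, and 0 and 1028 (2019) for Jak2V617F among dKO clones. The causes were not tested. The planned quasi-likelihood count test on recovered reads was not run; voom on the same reads stands in its place.

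The clone numbers did not pair the samples: deviations of same-numbered clones correlated between -0.25 and 0.15 across genes. A replicate block by clone number called 1323, 3226, 3355, 1769 and 956 genes in the 5 comparisons, against 1617, 3533, 3577, 2019 and 1256 without it, and 1 member (Tfrc) for the difference between dKO effects.

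Leaving out 1 library at a time, all genes called ranged from 106 to 1990 for the dKO in Jak2WT, 2112 to 2995 for it in Jak2V617F, 1560 to 3972 for Jak2V617F among GLUT1/3 WT clones, 618 to 1959 among dKO clones and 4 to 1258 for the difference between dKO effects. Members called ranged, in the last 4 of these, from 0 to 3, 1 to 4, 0 to 3 and 0 to 2. For the dKO in Jak2WT, Steap3 ranged from -0.023 to 0.29 and Slc25a37 from -0.040 to 0.13. For the dKO in Jak2V617F, Slc11a2 ranged from -0.058 to 0.070, Slc25a37 from -0.28 to 0.091, Fth1 from -0.38 to 0.021 and Ftl1 from -0.48 to 0.22. Slc25a37 among GLUT1/3 WT clones ranged from -0.26 to 0.11 and Tfrc among dKO clones from -0.32 to 0.28. For the difference between dKO effects, Slc25a37 ranged from -0.32 to 0.047, Fth1 from -0.33 to 0.081 and Ireb2 from -0.059 to 0.063. With 2 clones a group, a left-out library leaves a lone clone that is assumed to vary like the others.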
